A study of Mus musculus with 3 samples.

Results

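The blood vessel cells of 3 mouse melanomas are described, with their endothelial and mural genes set against all other cells and compared across the tumors. Their members were the cells that the authors' own cluster assignment named Bloodvessel, 150 of 12670 cells. They comprised 74 of 4095 cells of the untreated tumor, 48 of 3726 cells of the tumor that had regressed on vemurafenib and 28 of 4849 cells of the tumor that had progressed on it. Each group was 1 tumor of a Braf V600E and Tyr:CreER melanoma model on a C57BL/6 background, in which tamoxifen-activated Cre under the tyrosinase promoter switches on mutant Braf in melanocytes. Some mice of the study also carried a Rosa26 LSL tdTomato reporter. Since the Cre is driven in melanocytes, the mutant Braf is by design not switched on in vessel cells. The mice of the regressed and progressed tumors received vemurafenib, an inhibitor of mutant Braf, throughout the body. The labels give neither age nor sex, and the tumors were digested with enzymes before single-cell RNA sequencing.

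Blood vessels are lined by endothelial cells, which are held together by cadherin and claudin junctions and sense growth through receptors for VEGF and angiopoietins. Arteries, capillaries and veins differ in the genes their endothelium uses, with Notch signaling a feature of arteries, lipid uptake of capillaries and leukocyte capture of small veins, and lymphatic vessels are lined by a separate endothelium that depends on the factor Prox1. Around the endothelium lie the mural cells, pericytes on capillaries and smooth muscle on larger vessels. In tumors vessels supply oxygen and are the door through which leukocytes enter.

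Levels rest on unique molecular identifiers (UMIs), tags that mark single captured RNA molecules, summed over the vessel cells of a tumor and scaled to 1000000 (CPM). Brackets give exact 95% intervals that cover counting error only. With 1 tumor per group there was no replicate check and no test between groups, and cells were not used as replicates. In the untreated tumor the vessel cells held 779004 UMIs, in the regressed one 214420 and in the progressed one 157056, with medians of 9089, 3504.5 and 4089.5 UMIs per cell, so that genes at low levels were seen best in the untreated tumor. Median depth of all other cells ran from 2646.5 UMIs in the regressed to 4569 in the progressed tumor. Xist, made from the silenced X chromosome, was at 1379, 0 and 1630 CPM in the vessel cells of the untreated, regressed and progressed tumor, and the Y-linked gene Ddx3y had 1, 31 and 0 UMIs. The regressed tumor thus came from a mouse of the other sex by these genes, and sex and treatment cannot be told apart in any comparison with it. The vessel cells also differed in RNA known from other cells, with the haemoglobin list at 50.1, 1838 and 0 and the neutrophil list at 2660, 886 and 6.37. The same lists ran at 1513, 22108 and 45.3 (haemoglobin) and 17488, 2872 and 77.5 (neutrophil) in the other cells of these tumors, and their part in the differences below was not tested.

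The endothelial identity of the cluster was clear from its 5 markers. Pecam1, the adhesion protein CD31 of endothelial junctions (chr11:106654213-106715281, GRCm38), was at 1030 (959 to 1103), 1045 (912 to 1191) and 821 (686 to 976) CPM in untreated, regressed and progressed vessel cells, against 3.55, 7.21 and 0.821 in the other cells. Cdh5, the cadherin that joins endothelial cells (chr8:104101613-104144504), was at 751 (691 to 814), 728 (618 to 851) and 669 (547 to 809), and its level in other cells, 59.9, 43.0 and 33.3, was the highest background of the 5 genes. Cldn5, the claudin of endothelial tight junctions (chr16:18776847-18778262), stood at 598 (545 to 655), 905 (782 to 1041) and 764 (633 to 914), against at most 3.12 in other cells. Thus junction genes marked the cluster in every tumor. Vwf, the clotting factor stored by endothelial cells (chr6:125552948-125686679), was at 255 (221 to 294), 401 (321 to 495) and 458 (359 to 577). Kdr, the main VEGF receptor (chr5:75932827-75979072), was at 86.0 (66.7 to 109), 154 (106 to 216) and 236 (166 to 325). Over the 25 clusters with the tumors pooled, each of the 5 genes was highest in the vessel cells. The next cluster was Stroma4 for Cdh5, at 139 CPM, NK_T for Pecam1, at 47.6, and MitoHigh for Cldn5, at 43.3.

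The markers were spread over most of the cells rather than held by a few. At least 1 UMI of Pecam1 was found in 72 of 74 untreated, 40 of 48 regressed and 26 of 28 progressed vessel cells. After every cell was thinned to 1000 UMIs, which left out 7 shallow regressed cells, the share with Pecam1 was 56.8% (44.7 to 68.2), 56.1% (39.7 to 71.5) and 57.1% (37.2 to 75.5), against 0.329%, 0% and 0.301% of macrophages thinned in the same way, which should lack the gene. With 2 or more UMIs over the 5 markers taken as endothelial-marked, 74 of 74, 43 of 48 and 28 of 28 vessel cells passed. In the regressed tumor 3 further cells held 1 such UMI and 2 held none, and 7 of the 48 cells had under 1000 UMIs in all.

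**Figure D1:**
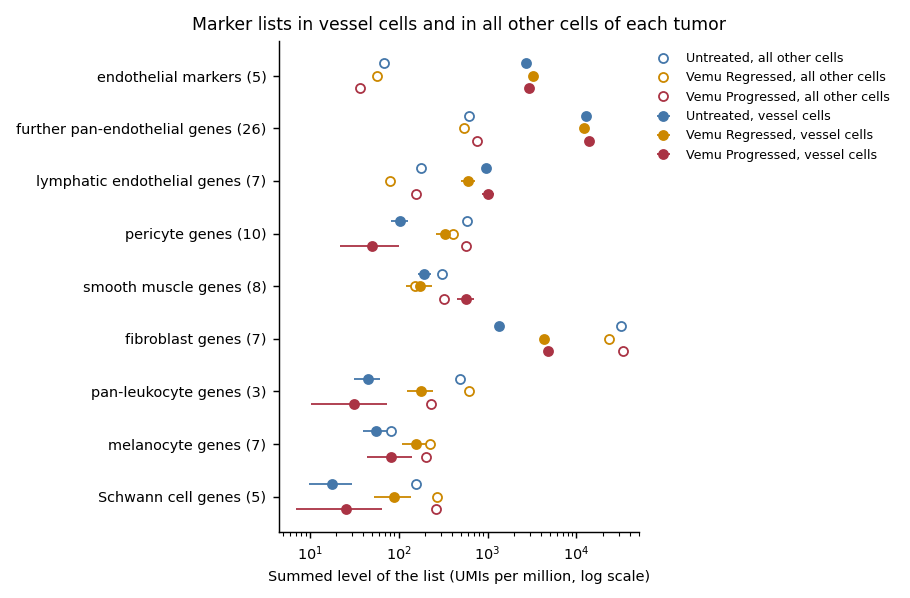
Summed level of 9 marker lists in CPM (log scale; number of genes in brackets), with filled points for vessel cells, lines for their 95% counting intervals and open points for all other cells of the same tumor. The endothelial, pan-endothelial and lymphatic lists lie to the right of the other cells in all 3 tumors, and the pericyte, fibroblast and leukocyte lists lie to the left. The smooth muscle list lies to the left in the untreated tumor and to the right in the others.

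A longer list of 26 pan-endothelial genes pointed the same way, since 26 of 26 were higher in vessel cells than in other cells of all 3 tumors and 21 were highest there of all clusters. Their sum was 12873 (12622 to 13127), 12252 (11788 to 12729) and 13823 (13248 to 14417) CPM in untreated, regressed and progressed vessel cells, against 621, 544 and 769 in the rest. Plvap, which forms the diaphragms of endothelial pores, was at 2200, 1814 and 2273, and Egfl7, an endothelial matrix protein, at 1756, 1054 and 1343. Among the exceptions, Tek, the angiopoietin receptor, and Cd34, a surface sialomucin, were also high in the stromal cluster Stroma8, at 99.0 and 795. As the cells were clustered on these genes, the differences from other clusters are a description. Across 17983 genes, the profile of the vessel cells was nearest to those of Stroma1, Stroma4 and Stroma10, with Spearman rho of 0.829, 0.829 and 0.827, values that depend on depth and on genes that all cells share.

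Ranked by the smallest of the 3 log2 ratios of vessel cells to other cells, of 1311 genes with at least 20 vessel UMIs in each tumor, the 15 leading genes were Mecom, Myct1, Grrp1, Sox17, Adgrl4, Gpihbp1, Cldn5, Tmem252, Mmrn1, Mmrn2, Tie1, Pcdh17, Podxl, Fam167b and Depp1, with smallest ratios from 8.69 down to 7.48. Mecom, a zinc finger factor, was at 135 (110 to 163), 238 (177 to 313) and 146 (92.8 to 220) CPM in vessel cells of the untreated, regressed and progressed tumor and at 0.327, 0.574 and 0.187 in the rest. Sox17, a factor of arterial endothelium, had no UMI in the other untreated cells, and stood at 109, 219 and 197 in vessel cells. Tie1, the partner receptor of Tek, was at 306 (268 to 347), 308 (238 to 392) and 204 (139 to 288). Mmrn2, a matrix glycoprotein that endothelium makes, was at 331, 317 and 325, levels whose intervals overlapped in all 3 tumors. The leading genes thus included transcription factors, receptors and matrix proteins of endothelium.

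Promoters of 3 of these genes that hold matches to the letters searched are shown to give the sequence context of genes that marked the cluster. They are the 250 bases before the start of Cldn5 (chr16:18776597-18776846, plus strand), Myct1 (chr10:5593478-5593727, plus strand) and Tie1 (chr4:118489850-118490099, minus strand) in RefSeq on GRCm38, written 5′ to 3′ along the gene, with capitals for matches on either strand to CACCC, letters bound by Krüppel-like factors, or to AGATAA, letters bound by GATA factors:
Cldn5: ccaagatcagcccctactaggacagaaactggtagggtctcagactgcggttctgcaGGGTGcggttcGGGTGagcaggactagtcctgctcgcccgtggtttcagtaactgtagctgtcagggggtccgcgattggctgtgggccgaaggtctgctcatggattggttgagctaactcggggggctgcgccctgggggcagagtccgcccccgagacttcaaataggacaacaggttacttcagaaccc
Myct1: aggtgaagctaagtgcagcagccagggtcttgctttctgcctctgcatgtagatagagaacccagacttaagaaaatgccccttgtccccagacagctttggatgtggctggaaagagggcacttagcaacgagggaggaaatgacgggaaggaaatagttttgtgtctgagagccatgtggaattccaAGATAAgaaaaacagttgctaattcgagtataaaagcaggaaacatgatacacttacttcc
Tie1: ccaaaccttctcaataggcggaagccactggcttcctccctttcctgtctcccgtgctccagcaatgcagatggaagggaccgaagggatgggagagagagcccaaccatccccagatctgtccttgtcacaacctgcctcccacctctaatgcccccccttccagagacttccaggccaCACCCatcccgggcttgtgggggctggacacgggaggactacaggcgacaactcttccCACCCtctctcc
In the Cldn5 promoter the 2 matches to CACCC, read from the other strand, began 193 and 182 bases before the start, and in that of Tie1 they began 70 and 12 bases before it. The Myct1 promoter held 1 match to AGATAA, 61 bases before the start. That of Mecom, the first of the 15 genes, held no match to any of the letters searched. The letters CACCC were found in 13 of 21 promoters (61.9%) of the endothelial and pan-endothelial lists that the table holds, beside 52.0% of all 32851 promoters. For AGATAA the shares were 9.52% and 9.99%, and for the ETS letters CCGGAAGT or CAGGAAGT 4.76% and 5.49%. Of the 12 promoters in the table for the 15 leading genes, 7 held CACCC, 2 held AGATAA and 0 held the ETS letters. These shares describe letters in a window. The promoters of Pecam1, Cdh5 and Vwf were not in the table.

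Pericyte genes were lower in the vessel cells than in other cells as a sum, while smooth muscle genes were not in every tumor. The sum of 10 pericyte genes was 103 (81.4 to 128), 336 (263 to 423) and 50.9 (22.0 to 100) CPM in untreated, regressed and progressed vessel cells, against 586, 409 and 579 in other cells, and none of the 10 was highest in vessel cells. Rgs5, a pericyte regulator of G protein signaling, had 0, 15 and 0 UMIs, and 93.3% of the 15 lay in 1 regressed cell. Without the regressed and untreated cells with the most UMIs of the list, its log2 ratio between these tumors went from 1.71 to 0.53. Pdgfrb, the receptor that holds pericytes to vessels, was at 10.3, 42.0 and 19.1, against 189, 152 and 202 in other cells, and was highest in Stroma9, at 533 with the tumors pooled. The sum of 8 smooth muscle genes was 195 (165 to 229), 173 (121 to 238) and 567 (455 to 697), against 304, 155 and 321 in other cells, so the progressed vessel cells stood above the other cells. Of these genes, Myh11, Cnn1 and Lmod1 had 0 UMIs in the vessel cells of all 3 tumors. Tagln, an actin-binding protein, was at 158 (131 to 188), 103 (64.3 to 155) and 458 (359 to 577), with 52.8% of its progressed UMIs in 1 cell. Cells with 2 or more pericyte UMIs numbered 16, 4 and 1, and all of them were also endothelial-marked. Every untreated and progressed vessel cell was endothelial-marked, so only the 4 regressed cells could have come out otherwise.

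The label of blood vessel did not cover every cell, since a minority carried the markers of lymphatic endothelium. By a rule chosen after the data were seen, 2 or more UMIs over Prox1, Mmrn1 and Lyve1, 19 of 74 untreated cells (25.7%, 16.2 to 37.2), 3 of 48 regressed cells (6.25%, 1.31 to 17.2) and 4 of 28 progressed cells (14.3%, 4.03 to 32.7) were lymphatic-marked. Just under that line lay 4, 1 and 1 cells with 1 such UMI, and 51, 44 and 23 cells had none. Just above it, 5 untreated cells had 2 to 4 such UMIs and 1 progressed cell had 2, and all others had at least 10. With a minimum of 10 UMIs, also chosen after the data were seen, 14 (18.9%, 10.7 to 29.7), 3 and 3 cells (10.7%, 2.27 to 28.2) were marked. Of the cells marked at 2 UMIs, 8, 1 and 2 were also marked by the venous or capillary genes given below, among them 4 of the 5 untreated cells with 2 to 4 UMIs. Over all 7 lymphatic genes, some of which other endothelium uses, 23, 4 and 8 cells passed. Prox1, the factor that sets lymphatic identity, had UMIs in 13, 3 and 3 vessel cells. Mmrn1, a matrix glycoprotein, was found in 15, 3 and 4 cells. Reln, a secreted glycoprotein of lymphatic endothelium that the rule did not use, was at 186, 1000 and 213 CPM in the marked cells of the untreated, regressed and progressed tumor and at 0, 0 and 8.05 in the rest.

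These lymphatic-marked cells also differed in genes of blood endothelium, which the rule did not use. Cldn5 was at 1552, 5077 and 1491 CPM in them, against 248, 635 and 572 in the remaining vessel cells. Aqp1, a water channel of blood endothelium, was at 253, 308 and 304 against 2674, 2130 and 3043, and Vwf at 95.5, 0 and 0 against 314, 427 and 580. Fabp4, a fatty acid carrier of capillaries, was at 692, 76.9 and 0 against 3194, 6251 and 2190. The 5 untreated cells with 2 to 4 lymphatic UMIs held all 20 Vwf UMIs of the marked cells and 140 of the 145 of Fabp4. With a minimum of 10 UMIs, Vwf was thus at 0 in the marked cells of each tumor, Fabp4 at 39.6, 76.9 and 0 and Cldn5 at 2516, 5077 and 1185. Thus Cldn5 was higher, and Aqp1, Vwf and Fabp4 lower, in lymphatic-marked cells of all 3 tumors. The marked cells held 209456, 13000 and 32853 UMIs, so the regressed values rest on 3 cells, in which 66 UMIs of Cldn5 were counted. Lyve1, a hyaluronan receptor, was at 425 (380 to 473), 107 (68.0 to 161) and 210 (145 to 295) over all vessel cells, and in the progressed tumor 66.7% of its UMIs lay in 1 cell.

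Markers of veins and of capillaries were next counted over all vessel cells, lymphatic-marked ones included. With 2 or more UMIs over Ackr1 and Selp, 44 of 74 untreated, 11 of 48 regressed and 10 of 28 progressed vessel cells were venous-marked, and with 2 or more UMIs over Gpihbp1 and Rbp7, 32, 26 and 12 were capillary-marked. Cells marked by both pairs numbered 20, 4 and 5. After thinning to 1000 UMIs 14 of 74, 6 of 41 and 3 of 28 cells were venous-marked and 8, 13 and 4 capillary-marked. In the untreated tumor the venous-marked cells thus outnumbered the capillary-marked ones, and in the regressed tumor the order was turned, after thinning too. The thinned intervals overlapped within each tumor, however. They were 18.9% (10.7 to 29.7) against 10.8% (4.78 to 20.2) in the untreated tumor. In the regressed one they were 14.6% (5.57 to 29.2) against 31.7% (18.1 to 48.1). Each pair is 2 genes of a longer list, so these counts do not stand for all venous or capillary genes. Whether cells of one kind were more numerous or each cell changed its genes cannot be told apart from these sums.

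**Figure D2:**
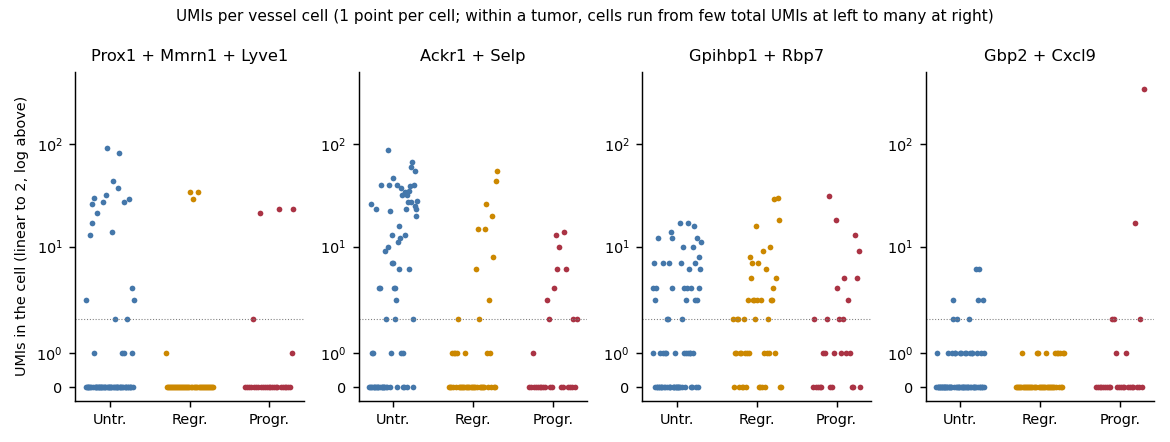
UMIs in each vessel cell (1 point per cell; axis linear to 2 and logarithmic above; dotted line at 2 UMIs) for the lymphatic genes Prox1, Mmrn1 and Lyve1, the venous genes Ackr1 and Selp, the capillary genes Gpihbp1 and Rbp7, and the interferon-stimulated genes Gbp2 and Cxcl9. Lymphatic UMIs fall either high or at 0 to 1 in most cells, and 1 progressed cell stands far above all others for Gbp2 and Cxcl9.

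Vessel cells made up a smaller share of the progressed tumor. Of all cells they made up 1.81% (1.42 to 2.26) when untreated, 1.29% (0.951 to 1.70) after regression and 0.577% (0.384 to 0.833) after progression. The progressed interval lay below those of the other tumors, which overlapped each other. Without immune, red blood cell, mitochondria-rich and undefined clusters, whose shares also differed, the untreated share was 2.65% and the regressed share 1.96%. How dissociation set these shares is not known, and each is the share of 1 tumor.

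Between tumors, a gene was counted as higher or lower when its level differed at least 2-fold and the whole interval of the log2 ratio lay on 1 side of 0, of genes with at least 20 UMIs in the pair. Against the untreated tumor, 11.7% of 7136 genes were higher and 6.05% lower in regressed vessel cells, and 6.08% of 6694 genes were higher and 4.09% lower in progressed ones. From regressed to progressed, 7.20% of 3792 genes were higher and 8.70% lower. These shares are the background for the counts below, and they moved with the scaling. Under TMM scaling, which shifted every log2 ratio by -0.20, -0.13 and 0.063 in these comparisons, the share of calls that were higher went from 66.0% to 44.8% in the regressed and from 59.8% to 44.9% in the progressed tumor against the untreated one. Single cells also weighed on the counts, as 80 of the 407 genes counted as higher from untreated to progressed had at least 50% of their progressed UMIs in 1 cell. Without the top cell of each tumor, 186 of the 407 still passed.

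Few genes that define endothelium passed this rule, though of 5 markers few would at the shares of all genes. Of the 5 markers none was higher or lower from untreated to regressed, where 11.7% and 6.05% of all genes were, or from regressed to progressed, where 7.20% and 8.70% were. From untreated to progressed 1 of 5, Kdr, was higher, beside 6.08% of all genes, with a log2 ratio of 1.45 (0.83 to 2.05), and 48.6% of its progressed UMIs lay in 1 cell, without which and the top untreated cell the ratio was 0.94. The sum of the 5 markers moved by 0.25 (0.12 to 0.37) on the log2 scale from untreated to regressed and by -0.13 (-0.31 to 0.039) from regressed to progressed, against -0.27 and -0.63 in other cells. Of the pan-endothelial genes 3 of 26, Sox17, Sox18 and Ly6c1, were higher from untreated to regressed, near the 11.7% of all genes. None was lower, beside 6.05%. Ly6c1, a surface protein of capillary and arterial endothelium, was at 637 (582 to 695), 1670 (1501 to 1852) and 1426 (1246 to 1626) CPM in untreated, regressed and progressed vessel cells, and its level in other cells stayed between 50.5 and 54.3. Both treated tumors thus lay above the untreated one for Ly6c1, with intervals apart. Sox18, a factor of vessel and lymphatic development, was at 69.3 (52.1 to 90.4), 187 (133 to 254) and 12.7 (1.54 to 46.0), the last from 2 UMIs.

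Single venous and leukocyte adhesion genes were lower in 1 or both treated tumors, while most venous genes were neither higher nor lower. Of 8 venous genes, 1 was lower from untreated to regressed, Selp, beside 6.05% of all genes, and 1 higher, Nr2f2, beside 11.7%. The sum of the list moved by -0.36 (-0.46 to -0.27) on the log2 scale in that comparison, against -0.30 in other cells. Without its largest gene, Lrg1, it moved by -0.17 (-0.28 to -0.058). From untreated to progressed 2 of 8 were lower, Ackr1 and Selp, beside 4.09%, and the sum moved by -0.17 (-0.27 to -0.065) on the log2 scale and by 0.15 at equal depth. Ackr1, the chemokine receptor of venules, was at 408 (365 to 456), 578 (481 to 690) and 31.8 (10.3 to 74.3) CPM in untreated, regressed and progressed vessel cells. Its log2 ratio from regressed to progressed was -4.18 (-5.83 to -2.92), while other cells stayed at 2.89 to 3.61. The progressed value rests on 5 UMIs in 3 cells, and 28 untreated and 11 regressed cells held the gene. Selp, the P-selectin on which leukocytes roll, was at 960 (893 to 1032), 364 (288 to 454) and 369 (280 to 477), with log2 ratios of -1.40 (-1.76 to -1.06) and -1.38 (-1.79 to -0.99) against the untreated tumor. Both treated tumors lay below the untreated one and did not differ from each other beyond counting error. Icam1, a ligand of leukocyte integrins, was at 263 (228 to 302), 88.6 (53.3 to 138) and 115 (67.9 to 181). In other cells Icam1 followed the same order, at 88.1, 30.0 and 68.6. Sele, the E-selectin of activated endothelium, was at 1000 (931 to 1073), 816 (700 to 946) and 968 (820 to 1134), and passed the 2-fold rule in no comparison.

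Of 9 leukocyte adhesion genes tested from untreated to regressed, 3 were lower, Selp, Icam1 and Vcam1, beside 6.05% of all genes, and 1, Jam2, was higher. From untreated to progressed 3 of 9 were lower, Selp, Icam1 and Ackr1, beside 4.09% of all genes, and none was higher. The sum of the list moved by -0.35 (-0.47 to -0.22) and -0.52 (-0.68 to -0.37) on the log2 scale, against -1.25 and -0.18 in other cells. From regressed to progressed the sum moved by -0.18 (-0.36 to 0.0070) and took the other sign at equal depth, with 0.35 after thinning. Neutrophil RNA was also far higher in untreated than in progressed vessel cells, as given above, and its part was not tested.

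The summed level of capillary genes was highest in the regressed tumor, and its difference from the progressed tumor rested on Fabp4. Fabp4 was at 2521 (2411 to 2635), 5876 (5556 to 6210) and 1732 (1532 to 1950) CPM in untreated, regressed and progressed vessel cells, and was the largest part of the sum of its list. Gpihbp1, which anchors lipoprotein lipase on capillaries, was at 309 (272 to 351), 686 (579 to 806) and 471 (370 to 592), with 41.9% of the progressed UMIs in 1 cell. Rbp7, a retinol-binding protein of capillaries and arteries, had only 3 UMIs in the untreated vessel cells, 51 in the regressed and 28 in the progressed ones. Its log2 ratio was 5.95 (4.32 to 8.27) from untreated to regressed and 5.53 (3.84 to 7.89) from untreated to progressed. The gene lay in 15 regressed and 9 progressed cells, with 19.6% of the regressed UMIs in the top cell, and other cells were at 0.984 CPM or less. Of 8 capillary genes tested, 4 were higher from untreated to regressed, Gpihbp1, Cd36, Fabp4 and Rbp7, beside 11.7% of all genes. The log2 ratio of Cd36 turned from 1.08 (0.69 to 1.47) to -0.26 at equal depth. From regressed to progressed 1 of 7, Fabp4, was lower, beside 8.70%. Its log2 ratio was -1.76 (-1.96 to -1.57), against -1.83 in other cells. Aqp1 went the other way, by 0.29 (0.089 to 0.49), which is below 2-fold. The sum moved by 0.86 (0.78 to 0.93) and then by -0.83 (-0.94 to -0.71) on the log2 scale, and by 0.43 and -0.027 when Fabp4 was left out. At equal depth the first value was 0.43, and without lymphatic-marked cells 0.58.

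**Figure D3:**
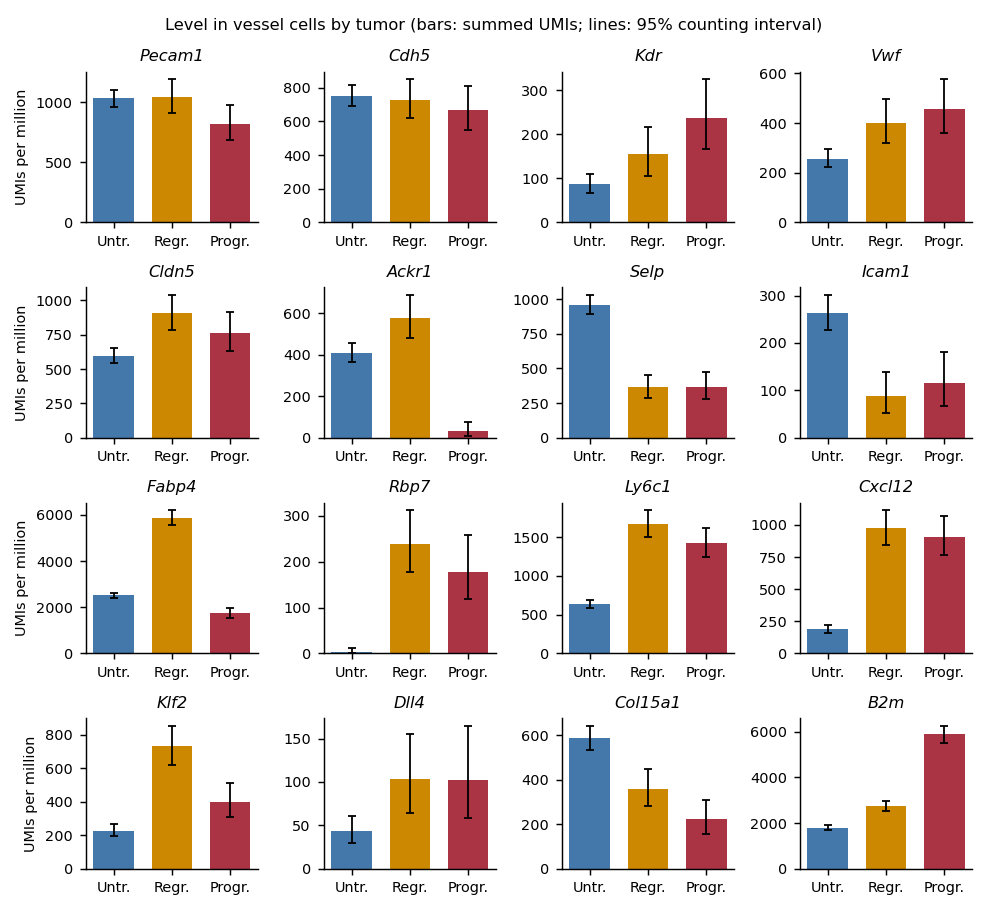
Level of 16 genes in the vessel cells of the untreated, regressed and progressed tumor in CPM, with bars for summed UMIs (each axis from 0, with its own scale) and lines for 95% counting intervals. Selp and Icam1 are highest in the untreated tumor, Fabp4 and Klf2 in the regressed one and B2m in the progressed one, while Ackr1 is at 31.8 in the progressed tumor.

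Arterial genes were among those higher in both treated tumors, and Notch pathway genes mainly in the regressed one. Of 9 arterial genes tested, 5 were higher from untreated to regressed, Gja4, Hey1, Dll4, Cxcl12 and Sox17, beside 11.7% of all genes. From untreated to progressed 3 of 9 were higher, Gja4, Dll4 and Cxcl12, beside 6.08%. Cxcl12, a chemokine that arteries and fibroblasts make, was at 186 (157 to 219), 975 (847 to 1116) and 904 (762 to 1066) CPM in untreated, regressed and progressed vessel cells. In other cells it took the opposite order, at 956, 141 and 292, so the log2 ratio from untreated to regressed was 2.39 (2.08 to 2.70) in vessel cells and -2.77 in the rest. Vessel cells thus stood below the other cells for Cxcl12 in the untreated tumor and above them in both treated tumors. Dll4, a Notch ligand of arteries and sprouts, was at 43.6 (30.2 to 61.0), 103 (64.3 to 155) and 102 (58.2 to 165), in 23, 15 and 12 cells. Gja4, a connexin of arteries, was at 44.9 (31.3 to 62.5), 97.9 (60.6 to 150) and 178 (118 to 258). Without Cxcl12 the sum of the arterial list moved by 0.45 and 0.63 on the log2 scale against the untreated tumor, in place of 1.24 (1.04 to 1.43) and 1.26 (1.05 to 1.47).

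Of 10 Notch pathway genes tested, 4 were higher from untreated to regressed, the ligands Dll4 and Jag2 and the targets Hey1 and Hes1, beside 11.7% of all genes, and none was lower. From untreated to progressed 1 of 10, Dll4, was higher, beside 6.08% of all genes. The sum of the list moved by 1.11 (0.87 to 1.35) and 0.56 (0.25 to 0.86) on the log2 scale. Hes1 was at 132 (108 to 160), 448 (363 to 547) and 248 (177 to 339) CPM in untreated, regressed and progressed vessel cells, and at 257, 476 and 234 in the other cells, where the regressed tumor was highest too. Klf2, which blood flow induces in endothelium, was at 228 (196 to 265), 732 (622 to 856) and 401 (308 to 513), a log2 ratio of 1.68 from untreated to regressed whose interval began at 1.36, against 0.63 in other cells. Klf4, its close relative, was at 103 (81.4 to 128), 219 (161 to 291) and 223 (155 to 310), while other cells stayed between 85.7 and 96.4. Nos3, the nitric oxide synthase of endothelium, was at 100 (79.1 to 125), 93.3 (57.0 to 144) and 102 (58.2 to 165), with no difference beyond counting error. Of the 6 flow-responsive and anticoagulant genes tested, 2 were higher from untreated to regressed, Klf2 and Klf4, beside 11.7% of all genes, and 2 from untreated to progressed, Klf4 and Procr, beside 6.08%.

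Growth factor and matrix genes showed no common direction. Of 7 VEGF and angiopoietin receptors, Flt4, the receptor of lymphatic endothelium, alone was lower from untreated to regressed, beside 6.05% of all genes. It was at 137 (113 to 166) and 18.7 (5.08 to 47.8) CPM. Lymphatic-marked cells, 19 in the untreated and 3 in the regressed tumor, held 95 of its untreated UMIs and the remaining vessel cells 12. The part of these cells in the difference was not tested. Kdr alone was higher from untreated to progressed, beside 6.08%. Flt1, a receptor that binds VEGF and placental growth factor, was at 166 (138 to 197), 312 (242 to 397) and 299 (220 to 398) and did not reach 2-fold. Pgf, placental growth factor, was at 52.6 (37.8 to 71.4), 9.33 (1.13 to 33.7) and 197 (134 to 280), with 61.3% of its progressed UMIs in 1 cell and 2 UMIs in the regressed tumor. Bmp4, a ligand of the BMP pathway, was at 135 (110 to 163), 46.6 (22.4 to 85.8) and 38.2 (14.0 to 83.2), lower in both treated tumors than in the untreated one. Id2, a target of that pathway, was at 313 (275 to 355), 210 (153 to 281) and 63.7 (30.5 to 117), while Id1, another target, was at 463 (417 to 514), 490 (401 to 593) and 560 (449 to 690). The targets thus did not move together. Of 13 basement membrane genes, 2 were lower from untreated to progressed, the collagens Col15a1 and Col18a1, beside 4.09% of all genes, and 1, the laminin Lamb2, was higher, beside 6.08%. Col15a1 was at 588 (535 to 644), 359 (283 to 449) and 223 (155 to 310), and the sum of the list differed by -0.033 (-0.12 to 0.058) on the log2 scale from untreated to progressed.

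Genes of MHC class I presentation were lowest in the untreated and highest in the progressed tumor, with the regressed tumor between them. B2m, the light chain of MHC class I, was at 1805 (1712 to 1902), 2728 (2512 to 2959) and 5883 (5510 to 6275) CPM in vessel cells and at 1557, 1871 and 2735 in the rest. H2-K1, a heavy chain, was at 439 (394 to 488), 1236 (1092 to 1394) and 2037 (1820 to 2273), against 317, 498 and 585. Psmb8, a subunit of the immunoproteasome, was at 146 (121 to 176), 247 (185 to 323) and 509 (404 to 634). The order was the same for the 3 genes, with intervals that did not overlap between the tumors for each of them. Of 8 genes of the list, 8 were higher from untreated to progressed, beside 6.08% of all genes, 4 from untreated to regressed, beside 11.7%, and 3 from regressed to progressed, beside 7.20%. The sum moved by 1.78 (1.69 to 1.86) on the log2 scale from untreated to progressed, against 0.68 in other cells, and by 1.55 without the cell with the most UMIs of the list in each tumor. Vessel cells thus differed more between these tumors than the other cells did, a difference with no replicate check.

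Interferon-stimulated and MHC class II genes were highest in the progressed tumor, where most of their UMIs lay in 1 cell. That cell held 21219 UMIs, the most of the progressed vessel cells and 13.5% of their UMIs, and it held 450 of the 692 UMIs of the interferon-stimulated list and 370 of the 464 of MHC class II. It also held 185 of the 185 progressed UMIs of Ubd, 169 of the 171 of Cxcl9 and 173 of the 196 of Gbp2, genes that interferon gamma induces. The cell carried 13 UMIs of Pecam1, 5 of Cdh5, 7 of Cldn5 and 22 of Lyve1, with 0 of Kdr, 0 of Vwf and 0 of Prox1. The pan-leukocyte, myeloid and lymphocyte lists had 0 UMIs in it. Thus it was an endothelial-marked, lymphatic-marked cell with no UMI of the leukocyte lists.

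With that cell and the top cells of the other tumors left out, the interferon-stimulated sum was still higher from untreated to progressed, by 1.97 on the log2 scale in place of 3.13 (2.95 to 3.31), against 0.36 in other cells. From regressed to progressed the value was 1.42 in place of 2.62 (2.36 to 2.88). The class II sum turned from 1.33 (1.11 to 1.56) to -0.77 (-1.13 to -0.42) in that comparison. Against the untreated tumor the class II sum was higher in both treated ones, by 2.97 (2.65 to 3.30) after regression and 4.30 after progression, and by 3.14 (2.80 to 3.49) and 2.37 (1.95 to 2.79) without the top cells. Of the class II genes tested, 4 of 4 were higher from untreated to regressed, beside 11.7% of all genes, and 5 of 5 from untreated to progressed, beside 6.08%. Bst2, an antiviral membrane protein that was less bound to 1 cell, was at 237 (204 to 274), 378 (300 to 470) and 815 (680 to 969) CPM in 60, 31 and 24 vessel cells of the untreated, regressed and progressed tumor, with 33.6% of the last in 1 cell. Cd74, the chain that accompanies MHC class II, was at 62.9 (46.5 to 83.2), 522 (430 to 629) and 1490 (1305 to 1694), in 30, 37 and 16 cells. In the regressed tumor the Cd74 UMIs were spread, with 10.7% in the top cell, and in the progressed tumor 79.5% lay in 1 cell. Other cells were at 1828, 3019 and 2986, and what free RNA added to Cd74 in vessel cells was not tested.

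**Figure D4:**
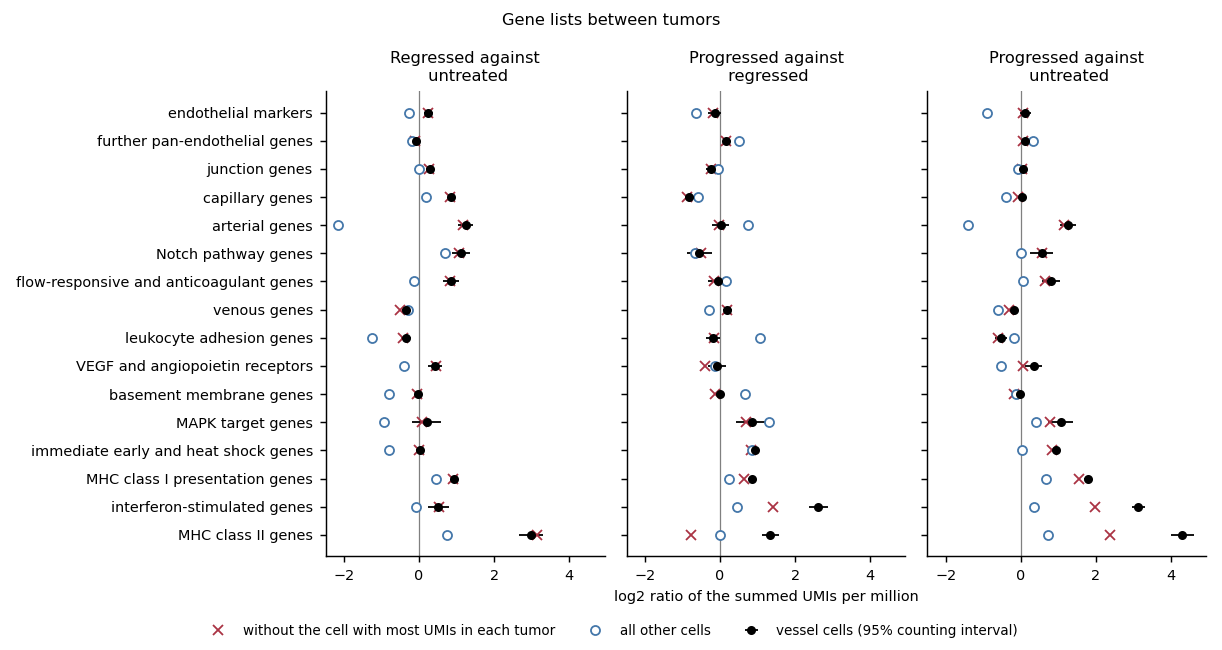
log2 ratio of the summed level of 16 gene lists between pairs of tumors, with black points for vessel cells, lines for 95% counting intervals, crosses for vessel cells without the cell with the most UMIs of the list in each tumor, and open points for all other cells. The endothelial markers lie near 0 in each panel, MHC class I lies at 1.78 from untreated to progressed, and the class II list changes sign from regressed to progressed when the top cells are left out.

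The genes whose ratios lay farthest from 0 beyond counting error were in part genes of other cells or of single cells. From untreated to regressed the 8 leading higher genes were Mir6240, Mir6236, Rbp7, Tpsb2, Krt15, Gsn, Mir7654 and Spock2. Tpsb2, a tryptase of mast cells, was at 5.13, 173 and 12.7 CPM in untreated, regressed and progressed vessel cells and at 109, 1182 and 451 in other cells, so both kinds of cells had the same order. Krt15, a keratin, and Gsn, an actin-severing protein, were likewise highest in the other regressed cells, at 1199 and 12570. Spock2, a matrix proteoglycan, was at 7.70 (2.83 to 16.8), 177 (125 to 243) and 369 (280 to 477), while other cells stayed between 44.3 and 60.4, and its progressed UMIs lay to 53.4% in 1 cell. Of these 8 genes, Spock2 alone was not higher in the other regressed cells as well.

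The leading lower genes from untreated to regressed included Krt71, Krt25, Nts, Birc5, Csf3, Tead2 and Ccnb2. All UMIs of Krt71 and Krt25, keratins of the hair follicle, lay in 1 untreated cell. Csf3, the growth factor of neutrophils, was at 307 (269 to 348), 37.3 (16.1 to 73.5) and 12.7 (1.54 to 46.0) CPM, in 25, 2 and 2 vessel cells of the untreated, regressed and progressed tumor, and at 11.9, 0.574 and 0.0746 in other cells. It was thus found in many untreated vessel cells and in few treated ones. Nts, the peptide neurotensin, was found in 13, 1 and 4 cells, at 196, 4.66 and 197, with 77.4% of the progressed UMIs in 1 cell. Birc5, a gene of cell division, had 74 UMIs in 13 untreated cells and 0 in both treated tumors. With the floor of 3 UMIs it was 2.76 lower on the log2 scale in the regressed tumor, and the interval limit nearest 0 was -2.43.

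From regressed to progressed the leading higher genes were Ccl1, Cxcl9, Ccl2, Xcl1, Ccl5, Cxcl10, Gbp2 and Ccl4, most of them chemokines, and from untreated to progressed Ubd, Spock2 and Cd74 stood beside Ccl1, Ccl5, Xcl1, Cxcl9 and Gbp2. Of Ccl1, 189 of 189 progressed UMIs lay in 1 cell of 6879 UMIs, which also held 126 of 126 of Ccl4 and 77 of 78 of Xcl1. The same cell held 16 of the 17 progressed UMIs of the lymphocyte list, 9 of the 10 of Cd3g and 3 of the 3 of Cd3e, chains of the T cell receptor complex, beside 14 UMIs of the 5 endothelial markers. Ccl1, Ccl4 and Xcl1 thus differed through 1 cell that carried lymphocyte and endothelial UMIs. The other chemokines also leaned on single cells. Of Ccl5, 115 of 123 progressed UMIs lay in the cell of 21219 UMIs described above, and of Ccl2 114 of 151. Of Cxcl10, 26 of 44 lay in a cell of 7019 UMIs. The leading lower genes from regressed to progressed were S100a8, S100a9, Mir6240, Krt15, Mir6236, Ackr1, Il1b and Ogfrl1, and from untreated to progressed S100a9, S100a8, Cxcl2, Il1b, Krt71, Retnlg, Csf3 and Slpi. S100a8, a calcium-binding protein of neutrophils, had 1127, 115 and 1 UMIs in the untreated, regressed and progressed vessel cells, and its log2 ratio from untreated to progressed was -7.83 (-13.13 to -5.35), against -7.72 in other cells. Cxcl2, a chemokine that attracts neutrophils, had 616, 57 and 3 UMIs, with a log2 ratio of -5.37 (-7.65 to -3.82) against -4.85. Both were thus lower to a like extent in vessel cells and in the rest.

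Targets of the MAPK pathway, through which vemurafenib acts in tumor cells, were at 306 (268 to 347), 350 (275 to 438) and 637 (518 to 774) CPM as a sum in the untreated, regressed and progressed vessel cells. In other cells the regressed tumor was lowest, at 988, 520 and 1294. From untreated to regressed none of 5 tested targets was higher or lower, and the sum moved by 0.20 (-0.20 to 0.58) on the log2 scale, against -0.93 in other cells. Phlda1, a pleckstrin-like target, was at 68.0 (51.0 to 89.0), 79.3 (46.2 to 127) and 293 (214 to 391), with 45.7% of the last in 1 cell, and was the only target that passed the 2-fold rule from regressed to progressed. Dusp6, a phosphatase that feeds back on ERK, was at 136 (111 to 165), 149 (102 to 211) and 146 (92.8 to 220), levels that could not be told apart at this depth. The difference of the sum from untreated to progressed was 1.06 (0.71 to 1.40), and 0.78 (0.37 to 1.16) without the top cells. After thinning to 1000 UMIs per cell it was -0.13, the only alternative in which its sign changed. That value comes from 1 random draw that kept fewer UMIs and has no interval. It thus cannot tell how depth bore on the difference.

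Genes of cell division and of acute stress also differed. The dividing cell list was at 316 (278 to 358), 97.9 (60.6 to 150) and 108 (63.1 to 173) CPM in untreated, regressed and progressed vessel cells, while it was lowest in the untreated tumor among other cells, at 124, 190 and 229. The other cells include a cluster of 265 cells that the authors named Dividing. Whether that cluster took up dividing endothelial cells was not tested, so these values do not give the division of all endothelium. Top2a, a topoisomerase of dividing cells, had UMIs in 9 untreated, 3 regressed and 0 progressed vessel cells. The sum of immediate early and heat shock genes, which answer quickly to stress, was at 6647 (6467 to 6831), 6702 (6360 to 7057) and 12690 (12139 to 13259), and at 12943, 7380 and 13327 in other cells. Hypoxia genes were at 1235 (1158 to 1315), 1208 (1065 to 1364) and 1191 (1026 to 1374), with overlapping intervals.

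The fibroblast, pan-leukocyte, keratinocyte and melanocyte lists were lower in the vessel cells than in other cells, but not absent. The fibroblast list of 7 genes was at 1339 (1259 to 1423), 4347 (4072 to 4635) and 4756 (4421 to 5110) CPM in untreated, regressed and progressed vessel cells, against 31969, 23036 and 33287 in other cells. In the treated tumors it stood above the sum of the 5 endothelial markers, at 3232 and 2948. Of 5 fibroblast genes tested, 5 were higher in each treated tumor than in the untreated one, beside 11.7% and 6.08% of all genes. The sum moved by 1.70 and 1.83 on the log2 scale, against -0.47 and 0.058 in other cells. Without the top cells it moved by 1.57 and 0.56. In the progressed tumor 1 cell of 10005 UMIs held 76.6% of the UMIs of Col1a1 and 76.3% of those of Col3a1. The pan-leukocyte list was at 44.9, 177 and 31.8 against 496, 615 and 234, and the keratinocyte list at 204, 979 and 248 against 2820, 4241 and 4205. The melanocyte list, which includes the transgene feature tWPRE, was at 55.2, 159 and 82.8 against 83.0, 226 and 206. In vessel cells all its untreated and progressed UMIs and 31 of its 34 regressed ones were of tWPRE. The list values thus describe tWPRE and not pigment genes. The reporter tdTomato itself had 0 UMIs in the vessel cells of all 3 tumors. In the regressed tumor the haemoglobin, keratinocyte, leukocyte and melanocyte lists were all highest in vessel cells, and their part in the other differences of that tumor was not tested.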

How the data were processed

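The authors digested the tumors, made single-cell 3′ libraries, aligned reads to GRCm38 with GSNAP, counted UMIs of uniquely mapped sense exonic reads and left out cells under 300 UMIs, and they clustered and named cells with Seurat 2.2.0. The gene annotation release is not given in the sources used here. The deposited values are UMI counts per gene and cell, and the deposited cell table holds counts of UMIs and genes per cell beside the cluster names. Table sums exceeded the deposited totals by 5.64% in vessel cells, while genes detected matched in all 12670 cells. Cells carry running numbers, so barcodes shared between tumors were not analysed here.

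From these counts, UMIs were summed over the vessel cells of each tumor and divided by their total and scaled to 1000000 (CPM; Python 3.11.15, numpy 2.4.6, scipy 1.17.1). Levels have exact Poisson 95% intervals, ratios exact conditional binomial ones and shares Clopper-Pearson ones. Where a tumor had 0 UMIs, its ratio was taken from a floor of 3 over all its vessel cells. Genes needed 20 UMIs over 2 tumors, 2-fold and an interval on 1 side of 0 to be counted. This rule was tried on simulated Poisson sums only. Such sums leave out UMIs gathered in single cells, so the trial cannot tell how the rule fares with them. TMM factors came from edgeR 4.0.16, used for scaling only. Named were the 5 markers, the 15 leading vessel genes, the 8 genes per comparison and direction whose interval lay farthest from 0 (50 CPM or more in 1 tumor, without haemoglobin, mitochondrial, ribosomal, Y-linked and duplicate features, Xist and Tsix), and members of the 33 lists. Members and lists were chosen with earlier results of these data known. 1 allele of the mouse model and 1 leading lower gene are not reported here. No doublet caller was run. Alternatives without cells with 3 or more leukocyte or melanocyte UMIs left out 7, 8 and 3 cells of the untreated, regressed and progressed tumor. Of 36530 features, 31049 matched a symbol.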

Additional observations from a re-analysis of the deposited data

How the results depend on the processing

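No paired analysis was possible because each group held 1 tumor, and for the same reason no tumor could be left out in turn. Depth set the main limit, as thinning to 1000 UMIs per cell left 1001, 540 and 909 genes to count and the progressed tumor gave 28 vessel cells. Thinned ratios come from 1 random draw and are given without intervals. Leaving out lymphatic-marked cells, 1 progressed cell (that with the most interferon-stimulated UMIs) or the cell with the most UMIs of a gene or list in each tumor were alternatives chosen after seeing the data. In what follows, the first comparison is regressed against untreated, the second progressed against regressed and the last progressed against untreated, and list values are log2 ratios of sums. Of the values for shares, counts and 4 lists under these alternatives, 67 moved and are given here while 110 stayed, which means that they moved by less than counting error or, for counts, by less than 1.5 times. The vessel share without immune, red blood cell, mitochondria-rich and undefined clusters was 2.65% (untreated) and 1.96% (regressed). Genes counted as higher and lower after thinning, with fewer genes to count, were 85 and 142 in the first comparison, 63 and 38 in the second and 54 and 49 in the last. With no minimum of UMIs, 1260 genes were higher in the first and 519 lower in the second comparison. With a minimum of 50 UMIs, 343 (first), 101 (second) and 218 (last) were higher and 102 (second) lower. Under TMM scaling 731 were lower in the first. Except where fewer genes or cells entered, the cause of a move was not tested.

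The endothelial markers gave 0.052 in the first comparison under TMM scaling and 0.10 after thinning, and 0.11 in the second after thinning and 0.074 with equal weight per cell, so the second had no settled direction. Capillary genes in the first comparison gave 0.66 (TMM), 0.43 (thinned), 0.43 (equal weight), 0.70 without cells with 3 or more leukocyte or melanocyte UMIs and 0.58 without lymphatic-marked cells. In the second they gave -0.71 (thinned), -0.70 (equal weight), -0.70 without the 5% of cells with most UMIs, -0.60 without lymphatic-marked cells and -0.64 without 1 progressed cell. The last comparison of this list had no settled direction, with -0.10 (TMM), -0.28 (thinned), -0.27 (equal weight), 0.15 without the 5% of cells with most UMIs, -0.089 without cells with leukocyte or melanocyte UMIs, 0.22 without 1 progressed cell and -0.081 without the top cell of each tumor.

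Leukocyte adhesion genes in the first comparison gave -0.54 (TMM), -0.52 (thinned), -0.71 (equal weight), -0.66 without the 5% of cells with most UMIs, -0.68 without cells with leukocyte or melanocyte UMIs and -0.55 without lymphatic-marked cells. The second took the other sign, with 0.35 (thinned), 0.28 (equal weight), 0.32 without the 5% of cells with most UMIs, 0.080 without cells with leukocyte or melanocyte UMIs, 0.056 without lymphatic-marked cells and 0.012 without 1 progressed cell. The last gave -0.17 (thinned), -0.33 without the 5% of cells with most UMIs and -0.33 without 1 progressed cell. MHC class I genes kept their direction throughout. In the first comparison they gave 0.74 (TMM), 0.80 (thinned), 0.70 (equal weight), 0.81 without the 5% of cells with most UMIs and 0.66 without cells with leukocyte or melanocyte UMIs. In the second they gave 0.97 (thinned), 1.17 without cells with leukocyte or melanocyte UMIs, 0.54 without lymphatic-marked cells, 0.57 without 1 progressed cell and 0.64 without the top cells. In the last they gave 1.64 (TMM), 1.61 (equal weight), 1.59 without the 5% of cells with most UMIs, 1.48 without lymphatic-marked cells, 1.51 without 1 progressed cell and 1.55 without the top cells.

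Further lists and genes changed sign in 36 values. After thinning these were venous genes (0.15, last), VEGF and angiopoietin receptors (-0.18, first, and -0.040, last), MAPK targets (-0.13, last), Pecam1 (0.0059, second), Cd36 (-0.26, first), Pgf (-0.013, last) and Ogfrl1 (-0.37, first). Under TMM scaling it was the pan-endothelial list (-0.031, last), and with equal weight per cell Ogfrl1 (-0.31, first). Without cells with leukocyte or melanocyte UMIs they were the VEGF and angiopoietin receptors (-0.061, last), Ubd (-0.48, first), Spock2 (-0.36, second), Ccl4 (-0.24, last), Ogfrl1 (-0.51, first) and Slpi (0.060, first). Without lymphatic-marked cells they were VEGF and angiopoietin ligands (-0.37, second, and -0.44, last), MHC class II (-0.66, second), Ubd (-2.52, second, and -0.12, last) and Cd74 (-0.45, second). Without the 5% of cells with most UMIs they were MHC class II (-0.68, second), Ubd (-0.76, first, and -0.32, last), Cd74 (-0.52, second) and Ogfrl1 (-0.12, first). Without 1 progressed cell they were MHC class II (-0.76, second), Ubd (-2.56, second, and -0.29, last) and Cd74 (-0.56, second). Without the top cells they were MHC class II (-0.77, second), Ubd (-0.36, first), Cd74 (-0.46, second) and Ccl4 (-0.55, second, and -0.78, last).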

Other observations

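Sprouting and junction genes filled out the picture of the vessel cells. Apln, a peptide of sprouting tip cells, was at 190 (161 to 223), 140 (94.4 to 200) and 223 (155 to 310) CPM in untreated, regressed and progressed vessel cells, and 63.3% of its regressed UMIs lay in 1 cell. Esm1, another tip cell gene, was at 21.8 (12.7 to 34.9), 56.0 (28.9 to 97.8) and 63.7 (30.5 to 117), in 7, 4 and 2 cells. Angpt2, which loosens vessels, was at 189 (159 to 222), 163 (114 to 227) and 325 (242 to 427), with 47.1% of the last in 1 cell. Esm1 was thus found in few cells of any tumor. As a list, the tip cell and angiogenic genes were at 1629, 1320 and 1534, in 71, 35 and 22 cells, the VEGF and angiopoietin receptors at 1105, 1478 and 1401 and their ligands at 284, 219 and 573. The junction genes were at 3800, 4617 and 3929 against 398 to 417 in other cells, and of 9 tested Tjp1 and Jam2 were higher from untreated to regressed, beside 11.7% of all genes.

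The remaining lists gave these sums in untreated, regressed and progressed vessel cells. Venous genes were at 6697, 5200 and 5972 CPM, lymphatic genes at 965, 602 and 1025, Notch pathway genes at 506, 1091 and 745, and flow-responsive and anticoagulant genes at 736, 1320 and 1273. BMP and endoglin pathway genes were at 3474, 2761 and 2795, and smooth muscle genes at 195, 173 and 567. Myeloid genes were at 367, 630 and 185 against 3310, 3030 and 2236 in other cells, lymphocyte genes at 1.28, 182 and 108 against 73.4, 538 and 76.0, and Schwann cell genes at 18.0, 88.6 and 25.5 against 159, 272 and 262. The lymphocyte UMIs of the progressed vessel cells numbered 17, of which 16 lay in the cell that held the Ccl1 UMIs.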
